A study of Oryza sativa Japonica Group with 2 samples.

Results

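NF-YC11 ChIP regions on the arms of rice chromosomes 1 and 5 were described by their number, spacing, signal and width. They were chosen by position alone: a region was taken if its summit lay more than 3.0 Mb from the centromere, placed at 16.7 Mb on chromosome 1 and 12.4 Mb on chromosome 5. This gave 764 of the 4193 regions in the deposited peak list (18.2%), with 797 summits. The long arm of chromosome 1 held 323 of them and its short arm 156, and the long arm of chromosome 5 held 185 and its short arm 100. The centromere positions were set and not measured, and the deposited files do not state a genome build, so coordinates are those of the files.

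The study compared 1 chromatin immunoprecipitation (ChIP) library with 1 input library, both from endosperm of rice (Oryza sativa Japonica Group) at 7 days after pollination. The ChIP library was precipitated with an anti-FLAG antibody from endosperm that carried FLAG-tagged NF-YC11, and the input is chromatin that was not precipitated. No source used here gives the promoter that drives the tagged protein, the number of plant lines or the number of grains pooled. Untagged endosperm precipitated with the same antibody was not analysed here. With 1 library per group there is no replicate error, and the regions of 1 library are not replicates of each other, so no p-value is given and each interval covers counting error only.

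NF-Y is a transcription factor built from NF-YA, NF-YB and NF-YC subunits. NF-YB and NF-YC pair through histone-fold domains, and NF-YA joins the pair and contacts the CCAAT box in DNA. Plants carry several genes for each subunit, and some NF-YB and NF-YC members act in the cereal endosperm, where starch and storage proteins accumulate. Chromosomes 1 and 5 descend from the same ancestral chromosome through a whole-genome duplication before the cereals diverged, so large blocks of genes occur on both. Gene pairs within these blocks were not located here, and the chromosomes were compared arm by arm.

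More regions per Mb were called on the long arm than on the short arm of each chromosome. The long arm of chromosome 1 held 13.7 regions per Mb (95% Poisson interval 12.3 to 15.3), against 11.4 (9.67 to 13.3) on its short arm. The long arm of chromosome 5 held 12.9 per Mb (11.1 to 14.9), against 10.6 (8.66 to 12.9) on its short arm. The ratio of long-arm to short-arm density was 1.20 on chromosome 1 (95% interval 0.992 to 1.47) and 1.21 on chromosome 5 (0.944 to 1.56). Each interval on a ratio includes 1, so on neither chromosome was the difference larger than the counting error of its regions. Over both chromosomes together the ratio was 1.21 (1.04 to 1.41), with 508 long-arm and 256 short-arm regions. These intervals treat regions as independent of each other, and clustering of regions would make them too narrow. Whether regions cluster was not tested. Arm lengths of 23.5, 13.7, 14.4 and 9.40 Mb (chromosome 1 long and short, chromosome 5 long and short) were counted from coordinate 1 or up to the last summit of the chromosome. Sequence to which reads cannot be mapped was not taken out of them.

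**Figure D1:**
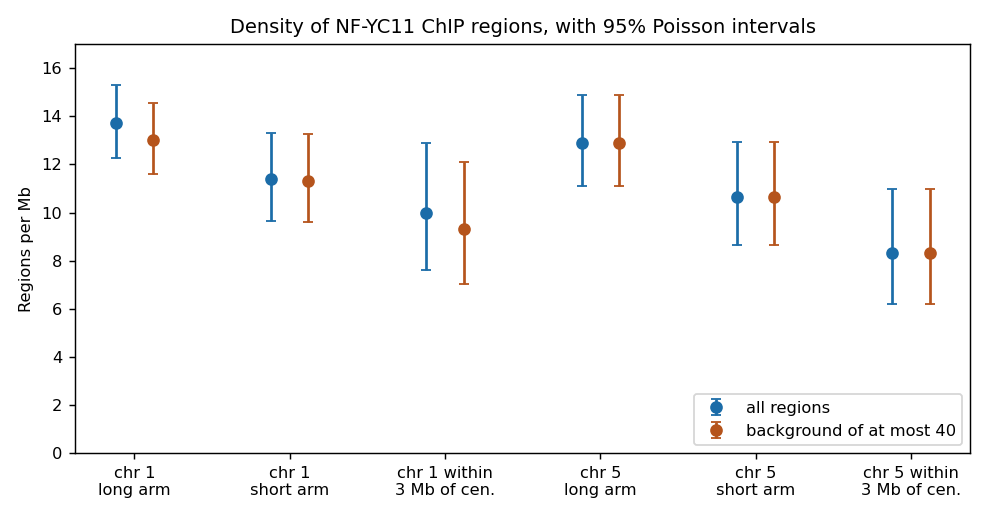
Density of regions per Mb (y axis) on the long arm, the short arm and within 3 Mb of the centromere (cen.) of chromosomes 1 and 5, for all regions (blue) and for regions with an input background of at most 40 fragments (orange); bars are 95% Poisson intervals. Both long arms lie above their short arms, with overlapping intervals, and the centromeric stretch lies lowest on each chromosome.

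Corresponding arms of the chromosome pair differed by less than their counting error. The long arm of chromosome 1 stood at 1.07 times the long arm of chromosome 5 (0.887 to 1.28), and the short arm of chromosome 1 at 1.07 times the short arm of chromosome 5 (0.827 to 1.39). These intervals leave room for differences in either direction. Compared with the 3 Mb on each side of the centromere, the arms held more regions per Mb on both chromosomes. On chromosome 1 the arms held 12.9 regions per Mb, against 10 in the centromeric 6 Mb, a ratio of 1.29 (0.982 to 1.71). On chromosome 5 they held 12.0 per Mb, against 8.33 in the centromeric 6 Mb, a ratio of 1.44 (1.06 to 1.98). The interval excluded 1 on chromosome 5 and included it on chromosome 1. Without regions of high input background, described next, the ratio on chromosome 1 was 1.33 and its interval excluded 1 as well (1.003 to 1.78). In rice, genes are in general sparser around centromeres than in the arms, and repeats are more frequent there; neither was measured here.

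Part of the count on chromosome 1 came from places where the input itself was high. A local input background was recovered for each summit from its pileup, the number of ChIP fragments that cover it, and its fold enrichment over input. The background is given in ChIP-scaled fragments. Many recovered values were multiples of 0.745, which was taken as the weight of 1 input fragment. If the caller scaled by library size, the input library was 1.34 times as large. Library sizes themselves were not read. A background above 40 was found at 17 regions of the chromosome 1 long arm, at 1 of its short arm and at 0 of the 285 regions of the chromosome 5 arms. This is 5.26% of the regions of the chromosome 1 long arm (Wilson interval 3.31 to 8.27) and 2.36% of all members, with 4.05% called over the whole list. The interval treats regions as independent, although 15 of these 17 lay in a single locus, so it is too narrow for a comparison of arms. All other members had backgrounds of at most 19.4, and the lowest among these 18 was 73.6, so no member lay near the limit of 40. Without these 18 regions the long arm of chromosome 1 held 306 regions, against 155 on its short arm, and the density ratio was 1.15 (0.944 to 1.40). Over both chromosomes the ratio was then 1.17 (1.01 to 1.37).

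Of the 17 high-background regions on the chromosome 1 long arm, 15 lay in a single locus of 81.2 kb, from 33506291 to 33587477. Its 22 summits had ChIP pileups of 179 to 278 fragments (median 233.5) over backgrounds of 73.6 to 189 (median 170). Their folds ran from 1.28 to 2.41, with a median of 1.42. The regions stood in groups: 3 between 33520930 and 33522464, 6 between 33533917 and 33539519 and 4 between 33582634 and 33587477, with 37.7 kb free of regions before the last group. No region of lower background lay inside the locus. When high-background regions were left out, the locus fell within the longest stretch of this arm without a region, 572 kb from 33181875 to 33753623. The single high-background region of the short arm, at 7761924 to 7762134, had 218 fragments (190 to 249) over an input background of 90.8, a 2.38-fold enrichment (2.08 to 2.72). Its fold lies above the median of the long-arm locus; its input coverage is also lower than at most summits there.

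Along the arms, the 58 full windows of 1 Mb held from 5 to 25 regions, with a median of 13. The highest count was from 33 to 34 Mb of chromosome 1, with 25 regions, and 15 of them belonged to the high-background locus. Once high-background regions were left out, the window from 31 to 32 Mb held the most on this chromosome, with 20, followed by 19 each from 21 to 22 Mb and from 32 to 33 Mb. The lowest count on chromosome 1 was 7, from 36 to 37 Mb. On chromosome 5 the highest count was 19, from 19 to 20 Mb, and the lowest was 5, from 17 to 18 Mb on the long arm and from 5 to 6 Mb on the short arm. The variance of the window counts was 1.10 times their mean over all members and 0.913 times without high-background regions. Independent placement gives a variance equal to the mean.

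**Figure D2:**
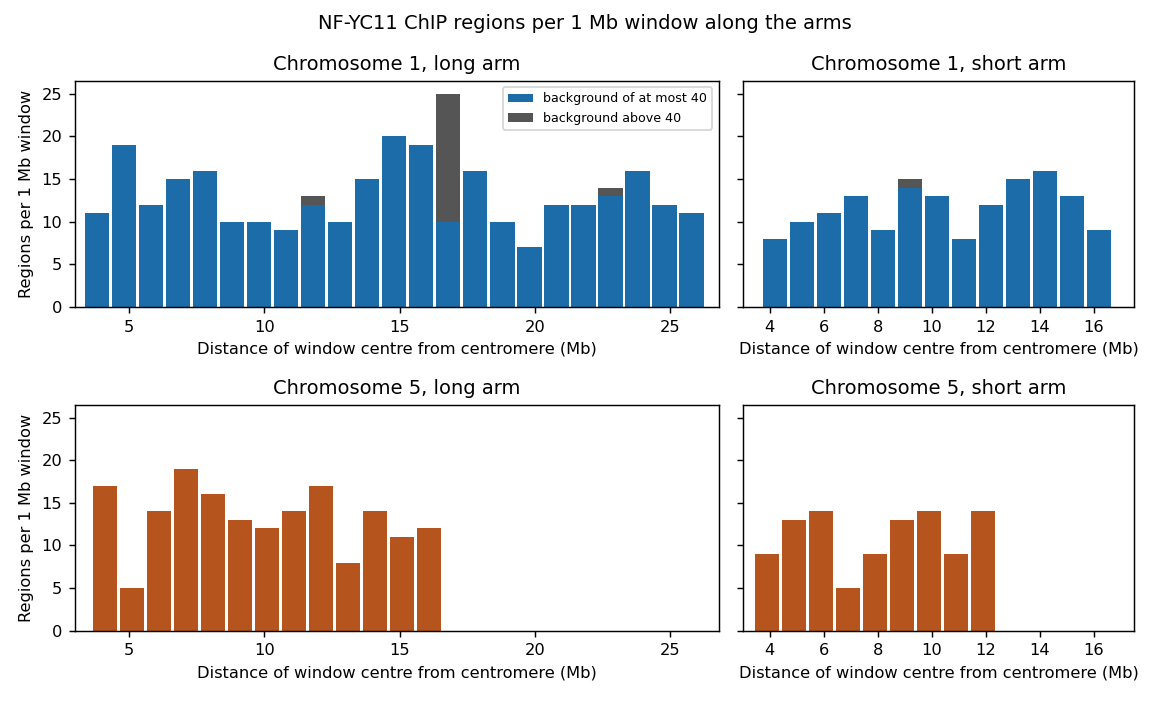
Regions per full 1 Mb window (y axis) against the distance of the window's centre from the centromere in Mb (x axis), for the long arms (left) and short arms (right) of chromosome 1 (top, blue) and chromosome 5 (bottom, orange); grey marks regions with a background above 40. The window with 25 regions on the chromosome 1 long arm holds 15 grey ones, and chromosome 5 holds 0.

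The outer and the inner part of each arm differed by less than their counting error. The outer 50% of the chromosome 1 long arm held 169 regions, against 154 in its inner 50%; without high-background regions each part held 153. The outer part of the chromosome 1 short arm held 83 regions, against 73 in the inner part, a ratio of 1.14 (0.820 to 1.58). The outer part of the chromosome 5 long arm held 91, against 94 in the inner part (0.968, 0.718 to 1.31), and that of its short arm 55, against 45 (1.22, 0.809 to 1.85). All these intervals include 1.

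Median gaps were shorter on the long arms. The median gap between neighbouring regions was 49.1 kb on the long arm of chromosome 1, against 68.4 kb on its short arm, and 51.5 kb on the long arm of chromosome 5, against 59.0 kb on its short arm. Without high-background regions it was 51.5 kb and 68.8 kb on the long and short arms of chromosome 1. Gaps are tied to the densities above, whose ratio had an interval that includes 1 on each chromosome. No interval is given for the gaps. The longest gaps were 511 kb on the chromosome 1 long arm (36470597 to 36981452), 347 kb on its short arm (2838769 to 3186239), 463 kb on the chromosome 5 long arm (17321502 to 17784668) and 660 kb on its short arm (5392062 to 6051810). On chromosome 5 these gaps lie largely in the windows that held 5 regions. A neighbour within 5 kb was found for 49 regions of the chromosome 1 long arm (15.2%, Wilson interval 11.7 to 19.5) and for 36 (11.8%) once high-background regions were left out, against 13 (8.33%, 4.93 to 13.7) on its short arm. On chromosome 5 it was found for 26 long-arm regions (14.1%, 9.77 to 19.8) and 12 short-arm regions (12.0%, 7.00 to 19.8). Without high-background regions these neighbours formed 42 groups on the arms, 39 of them pairs and 3 of them groups of 3 regions. The share with such a neighbour over the whole list, or under independent placement, is not given here. Whether regions cluster more than independent placement would give was not tested.

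**Figure D3:**
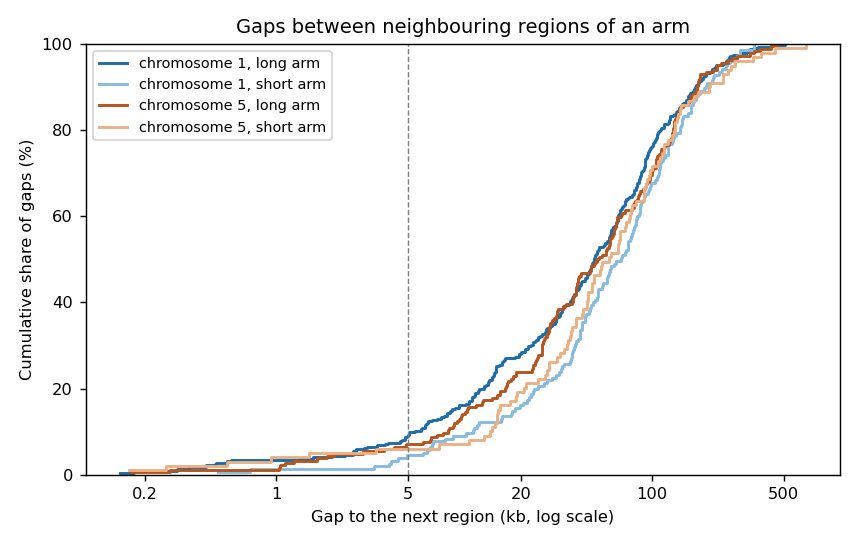
Cumulative share of gaps (y axis, %) by the length of the gap between neighbouring regions (x axis, kb, log scale), 1 line per arm; the dashed line marks 5 kb. The line of the chromosome 1 short arm, whose median gap is 68.4 kb, runs to the right of that of the chromosome 1 long arm, whose median gap is 49.1 kb, over most of the range.

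The groups of 3 regions lay at 21823745 to 21827602 and 21887817 to 21893395 of the chromosome 1 long arm and at 2232559 to 2237157 of its short arm. They spanned 3.86, 5.58 and 4.60 kb, and their folds ran from 2.25 to 2.94, from 2.69 to 3.51 and from 2.32 to 3.42. No group of 3 was found on chromosome 5.

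Median signal heights of the 4 arms lay within 1 fragment of each other. The median pileup was 24 fragments on the long and the short arm of chromosome 1 and on the long arm of chromosome 5, and 23 on the short arm of chromosome 5; the 3429 other regions of the list had a median of 24. The lowest pileup was 14 on every arm, and quartiles were 19 and 29 on the chromosome 1 long arm, 20 and 28 on its short arm, 20 and 29 on both arms of chromosome 5. The highest pileups were 278 and 218 on the long and short arms of chromosome 1, both at high background, and 60 and 46 on the long and short arms of chromosome 5. The order-statistic intervals of the medians overlapped (22 to 24, 23 to 25, 23 to 26 and 22 to 25 in the same order of arms). The median background was 7.45, 7.54, 8.19 and 8.19 fragments, or about 10 to 11 input fragments. The intervals of the median pileups leave room for differences of up to 4 fragments between arms.

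**Figure D4:**
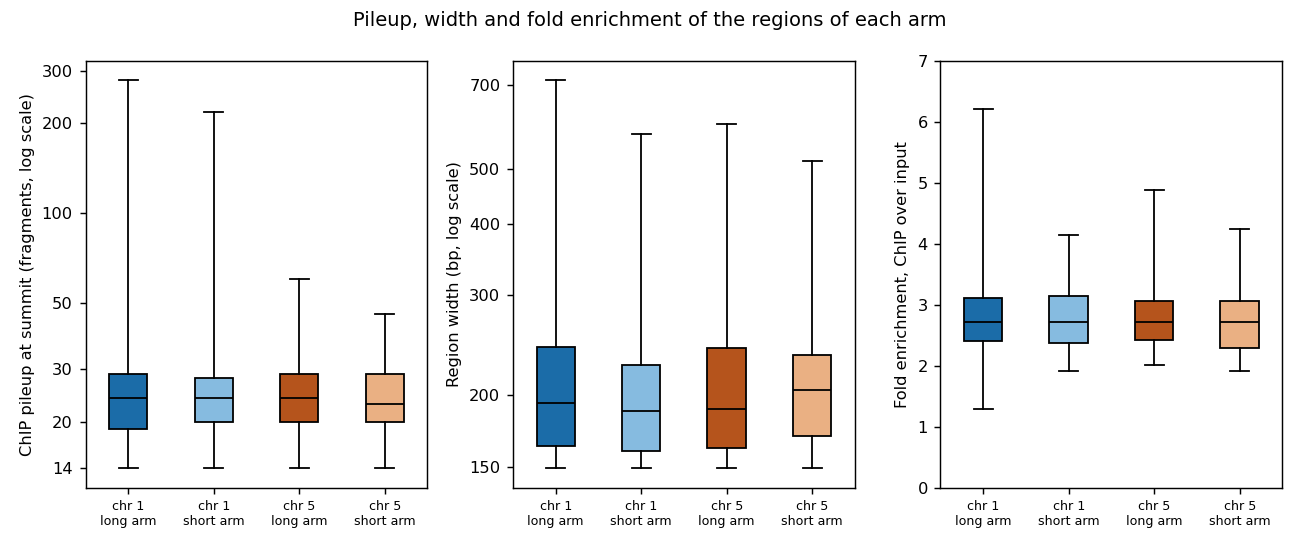
Pileup at the highest summit (left, fragments, log scale), width (middle, bp, log scale) and fold enrichment (right) of the regions of each arm; boxes are quartiles with the median, and whiskers reach the lowest and highest region. The boxes overlap for all 3 measures, and only the whiskers of chromosome 1 reach pileups above 60.

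The peak caller asks for more ChIP fragments where the input is higher, which contributes to a tie between pileup and background. Other contributions to this tie were not tested. Where the summit itself was covered by 10 input fragments, the lowest pileup called was 18 on every arm, and where it was covered by 12 the lowest was 21. At 10 input fragments the median pileup was 23 over 36 long-arm regions, against 24 over 20 short-arm regions. At 12 it was 26 over 31 long-arm regions, against 24.5 over 14 short-arm regions. In both cases the ranges overlapped, at 18 to 31 against 18 to 34 fragments and 21 to 37 against 21 to 34 fragments. Over the 7 levels from 8 to 14 input fragments, the long-arm median was higher at 5 and lower at 2, by differences of -1.5 to 1.5 fragments. Members at 10 input fragments had a median pileup of 23.5 and the rest of the list 23.

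**Figure D5:**
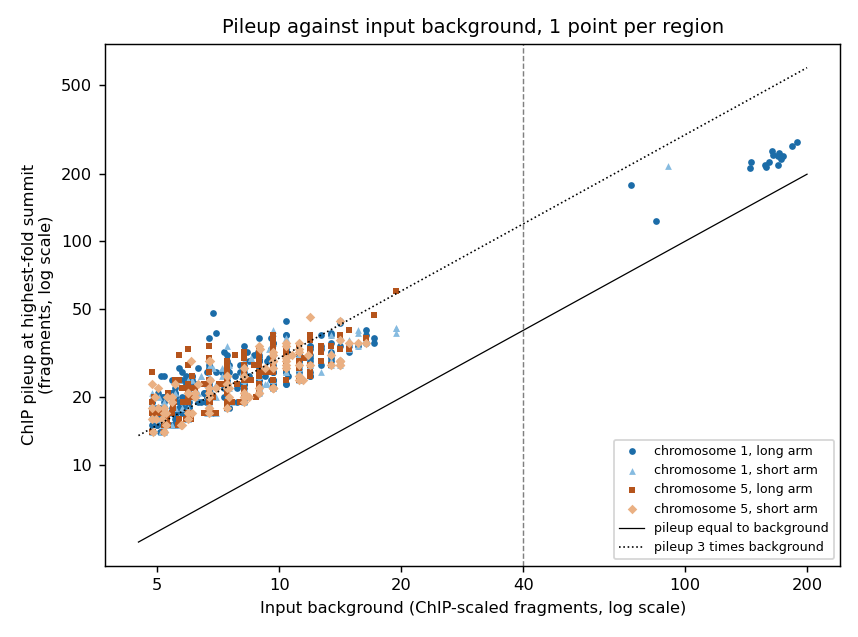
ChIP pileup at the highest-fold summit (y axis, fragments, log scale) against the recovered input background (x axis, ChIP-scaled fragments, log scale), 1 point per region and 1 colour and marker per arm; lines mark a pileup equal to the background and 3 times as high, and the dashed line a background of 40. The 746 regions of at most 19.4 form a single cloud shared by all arms, and 17 of the 18 points right of the dashed line belong to the chromosome 1 long arm.

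Median folds lay close together too, with medians of 2.73 and 2.72 on the long and short arms of chromosome 1 and 2.71 on both arms of chromosome 5, against 2.72 in the rest of the list. A fold from 2 to under 3 was found at 504 members, from 3 to under 4 at 219 and under 2 at 26, of which 16 had a high background. The shares of these 3 bands over the whole list are not given here, so the bands are not compared with it. A fold of at least 3 was reached by 234 members (30.6%), with 30.5% called over the whole list. By arm these were 31.6% and 33.3% on the long and short arms of chromosome 1 and 28.6% and 27.0% on those of chromosome 5, with overlapping Wilson intervals. A −log10 q of at least 5 was reached by 91 members (11.9%, Wilson interval 9.80 to 14.4), with 14.9% called over the whole list.

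Few members were strongly enriched. A fold of at least 4 was reached by 15 members (1.96%, Wilson interval 1.19 to 3.21), against 137 of the 3429 other regions (3.995%, 3.39 to 4.70), with 3.63% called over the whole list. The intervals do not overlap, but they treat regions as independent draws, and the difference was not tested. Of the 15, 12 lay on long arms (2.36% of their regions, 1.36 to 4.08) and 3 on short arms (1.17%, 0.399 to 3.39). All 15 had backgrounds of at most 7.45, against a median of 7.54 over all members. Fold is computed over the background, and Spearman's rho between them was -0.44 across the 722 members with 1 summit and a background of at most 40. Of the 15, 14 had 1 summit, as did 732 of all 764 members. A fold of at least 5 was reached by 2 members, both on the long arm of chromosome 1, which held 323 of the 764 members. The share of the whole list at this fold is not given here, and the highest fold in the rest of the list was 11.3.

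The strongest member was at chromosome 1, 29011907 to 29012119, on the long arm. It was 213 bp wide and had 48 ChIP fragments (exact interval 35.4 to 63.6), against an input background of 6.88, a 6.22-fold enrichment (4.62 to 8.20). The region at 41251101 to 41251435, 335 bp wide, followed with 39 fragments over 6.99, or 5.01-fold (3.60 to 6.80). The third, at 43194144 to 43194733, lies close to the last summit of the chromosome. It was the widest member outside high background on chromosome 1, with 590 bp, and held 2 summits of 22 and 37 fragments, at 3.43-fold and 4.93-fold (3.51 to 6.75 for the higher). The intervals of these 3 folds overlap, so their order cannot be told from counting error. The intervals hold the background fixed and so leave out the counting error of the input. The regions were also picked as the highest folds of the arm, which favours values that counting error raised.

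On the short arm of chromosome 1 the highest fold was lower. The region at 6967448 to 6967676 had 34 fragments over 7.45, a 4.14-fold enrichment (2.91 to 5.74). It was followed by 10947804 to 10947990, with 40 fragments over 9.68 (3.84-fold, 2.77 to 5.19), and 1857520 to 1857668, with 21 over 4.85 (3.76-fold, 2.39 to 5.66). The background of the last is the lowest of the whole list, so its fold may be against a genome-wide rate and not against local input. All 3 intervals overlap that of the strongest long-arm region.

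On the long arm of chromosome 5, 2 of the 3 strongest regions lay in the outer 50% of the arm. The highest fold was at 26608192 to 26608399, with 33 fragments over 5.96, a 4.89-fold enrichment (3.41 to 6.81). The next was at 25806159 to 25806437, with 31 fragments over 5.67 (4.80-fold, 3.31 to 6.75). Regions at 26412459 to 26412676 (4.54-fold) and 26551428 to 26551641 (4.17-fold), named after their values were seen, lay between them. These 4 of the 6 regions of at least 4-fold on this arm fell within 802 kb, among 10 regions in all. The remaining region in the top 3 of the arm was at 17321308 to 17321501, with 26 fragments over 4.87 (4.60-fold, 3.06 to 6.66), and it borders the longest gap of the arm.

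On the short arm of chromosome 5 the highest fold was at 324232 to 324455, with 29 fragments over 6.06, a 4.25-fold enrichment (2.89 to 6.04). The region at 3374669 to 3374849 had 23 fragments over the lowest background of 4.85 (4.10-fold, 2.66 to 6.07), and that at 8440309 to 8440682 had 29 over 6.70 (3.90-fold, 2.65 to 5.54). Less than 0.1 Mb from the first of these, the region at 227184 to 227699 had the highest pileup and the greatest width of this arm. It measured 516 bp and had 46 fragments (33.7 to 61.4) over 11.9, a fold of 3.64 (2.69 to 4.83).

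The tallest region of the chromosome 5 arms was at 27145142 to 27145327 of the long arm, with 60 fragments (45.8 to 77.2), against an input background of 19.4, or 26 input fragments. Its fold was 3.00 (2.30 to 3.84). On the short arm of chromosome 1, the region at 4181307 to 4181594 was covered by the same 26 input fragments and had 41 ChIP fragments (29.4 to 55.6), a fold of 2.06 (1.49 to 2.78). At equal input coverage, the intervals of their ChIP counts overlap.

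Regions were narrow on all arms. Together the 764 members covered 163 kb, 0.267% of the 61.0 Mb of arms. Median widths were 194 bp on the long arm of chromosome 1 (order-statistic interval 188 to 201), 187.5 bp on its short arm (175 to 197), 189 bp on the long arm of chromosome 5 (184 to 200) and 204.5 bp on its short arm (186 to 215), against 191 bp in the rest of the list. These intervals overlap throughout. The narrowest width was 149 bp, which equals the fragment length the caller appears to have used. It was found at 68 members (8.90%, against 8.57% in the rest of the list). Widths of at least 400 bp were found at 20 members (2.62%, against 2.77% in the rest), so both shares are near those of the rest. The widest region was 714 bp on the chromosome 1 long arm, at 33586764 to 33587477 in the high-background locus. On the chromosome 1 short arm it was 575 bp, at 11112266 to 11112840, with only 18 fragments and a 2.73-fold enrichment. On the chromosome 5 long arm it was 599 bp, at 18323366 to 18323964, with summits of 34 and 31 fragments at 2.88-fold and 3.22-fold.

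Width did not follow height. Among the 722 members with 1 summit and a background of at most 40, the median width was 198 bp at pileups of 14 to 19 fragments, 183 bp at 20 to 24, 187 bp at 25 to 29 and 192 bp at 30 to 39. Spearman's rho between width and pileup was -0.02 across these regions, which share a library and a calling threshold. Between pileup and background it was 0.79, which the calling threshold contributes to.

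Several summits in 1 region were found at 22 members of the chromosome 1 long arm (6.81%, Wilson interval 4.54 to 10.1), against 1 of its short arm (0.641%, 0.113 to 3.54), with 5.32% called over the whole list. The share on the long arm is near that of the list. Without high-background regions the long arm kept 14 (4.58%, 2.74 to 7.53), and the intervals then overlapped. On chromosome 5 there were 6 on the long arm (3.24%) and 3 on the short arm (3.00%). The 24 such members outside high background had a median width of 339 bp and a median fold of 2.60. The only one on the chromosome 1 short arm, at 3322926 to 3323250, had summits of 26 and 20 fragments.

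The regions nearest to the limit of 3.0 Mb were as follows. On the chromosome 1 long arm the first region included, at 19874665 to 19874833, had 26 fragments and a 2.53-fold enrichment, and the last one left out, at 19681791 to 19681952, had 27 and 3.32-fold. On its short arm the included region, at 13502937 to 13503146, had 15 fragments and 2.58-fold, and the excluded one, at 13788638 to 13788967, had 22 and 3.00-fold. On the chromosome 5 long arm they were 15462773 to 15462955, with 38 fragments and 2.57-fold, and 14858032 to 14858192, with 23 and 3.67-fold. On its short arm they were 8945381 to 8945541, with 21 fragments and 2.21-fold, and 9461570 to 9461795, with 16 and 2.59-fold.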

How the data were processed

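Peaks of 1 ChIP library against 1 input library were analysed. The submitters' processing notes name BWA and MACS2; no source used here gives their versions, the genome build or how duplicates were handled. Per the labels' protocols, 3 g of tissue was crosslinked for 30 min and sheared to 200 to 500 bp. Pileup, as deposited, is a signal that counts the fragments over a summit; the deposited fold enrichment is a ratio of ChIP to local input; and the deposited −log10 p and −log10 q are per summit. Both of the last had damaged header cells: a Poisson tail gave the first to within 0.00032, and the summit list holds the second with differences of 0 at 4445 of 4445 summits. The lowest −log10 q was 1.31. Total reads per library are unknown.

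Rows that share chromosome, start and end were merged, and a region takes its highest pileup, its highest fold with that summit's background, and its highest −log10 q. Background was computed as (pileup + 1) / fold − 1. Intervals are exact 95% Poisson, conditional binomial for ratios, Wilson for shares and order-statistic for medians; those on folds hold the background fixed. Python 3.11.15, SciPy 1.17.1 and pandas 2.3.3 were used, and the statistics were tested on simulated data. Named regions are, per arm, the 3 highest folds at a background of at most 40, the highest pileup, the widest and the longest gap, with the densest and sparsest windows, high-background loci and the regions at the margin. Genes and sequence motifs were not analysed here. Members, limits and lists were chosen with earlier results of these data known. Comparisons of arm parts, neighbours within 5 kb and matched backgrounds were added after the data were seen.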

Additional observations from a re-analysis of the deposited data

How the results depend on the processing

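The direction of both density ratios held under every alternative run: long arms were denser at margins of 1.5 and 5 Mb, at higher −log10 q, without high-background regions, with summits as units and with arms measured from first to last member. Chromosome 1 ranged from 1.14 (margin of 5 Mb) to 1.34, and chromosome 5 from 1.15 (first to last member) to 1.64 (0.758 to 3.81, at a −log10 q of at least 5). The interval excluded 1 for chromosome 1 with summits as units (1.28, 1.06 to 1.56) and for chromosome 5 at a −log10 q of at least 2 (1.40, 1.03 to 1.91). Of 178 planned values, 148 stayed within the interval of the reported value. The others all came from the limits on q, which remove weak regions by construction. At a −log10 q of at least 2, densities were 10.4 and 8.39 per Mb on the long and short arms of chromosome 1 and 9.53 and 6.81 on those of chromosome 5. Median pileup was 25 on the chromosome 1 long arm and 26 on the chromosome 5 short arm. Median folds were 2.89 and 2.91 on chromosome 1 (long, short) and 2.89 and 2.91 on chromosome 5, and the median window of chromosome 1 held 9 regions. At a −log10 q of at least 5, densities were 1.66 and 1.24 per Mb on chromosome 1 and 1.74 and 1.06 on chromosome 5. Median pileups were 32, 33, 33 and 33.5 fragments and median folds 3.64, 3.43, 3.55 and 3.58 in the same order of arms. Windows of each chromosome then held a median of 1, a highest count of 4 and a lowest of 0. Leaving out high-background regions, for neighbours and arm parts an alternative added later, moved 0 values out of their intervals. No paired analysis was possible because each group is 1 library; for the same reason no replicate was left out. Detection had a floor: at the lowest background no pileup under 14 and no fold under 2.56 was called. How this floor depends on depth was not tested.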

Other observations

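The input stretch that set the background was inferred from the steps in which the recovered values fall. Some values can fit the steps of more than 1 stretch, above all of the 1000 and 10000 bp windows, so the shares are approximate. The caller takes the highest of the input rates at the summit, over 1000 bp and over 10000 bp, and a genome-wide rate. By this inference, the summit itself set the background at 476 members (62.3%), against 62.9% of the rest of the list. The 1000 bp window set it at 197 members (25.8%, against 25.8% in the rest) and the lowest value at 27 (3.53%, against 4.23% in the rest). The 10000 bp window set it at 63 members (8.25%, Wilson interval 6.50 to 10.4), against 7.00% in the rest (6.19 to 7.90). By arm, the summit set it at 56.3% of the regions of the chromosome 1 long arm (Wilson interval 50.9 to 61.6) and 66.7% of its short arm (58.9 to 73.6), and at 68.1% (61.1 to 74.4) and 64.0% (54.2 to 72.7) on the long and short arms of chromosome 5.

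The median summit lay near the middle of its region, but positions ranged widely. Among the 722 members with 1 summit and a background of at most 40, the median position was 0.475 of the way from the lower to the higher coordinate, with quartiles of 0.347 and 0.560. The lowest position was 0, at the edge of a region, and the highest was 0.965.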
